A study of Caenorhabditis elegans with 2 samples.

Results

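ZTF-4 binding was examined at 9 C. elegans genes that encode regulators of histone H3 methylation: set-16, ash-2, met-1, set-2, wdr-5.1, rbbp-5, utx-1, met-2 and set-25. They are 9 of 19985 protein-coding genes, and were selected on measured values as well as function: the set was put together when the strong peaks of set-16, ash-2 and met-1 in these data were already known. ChIP-seq was performed on whole L3 larvae of strain OP322, with males and females pooled. These animals carried unc-119(ed3) and the integrated transgene wgIs322, which encodes eGFP fused to ZTF-4, a zinc finger protein. There was 1 group with 2 biological replicates of this single strain and no comparison of conditions, and whole animals do not show in which cells a region was bound.

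Coordinates are those of ce11. Each listed region carries the authors' signal, and its summit is the single base where enrichment peaked. The list from IDR, a test of rank agreement between replicates, held 704 regions with signals of 35.9 or more. The pooled list, called on both replicates together, held 30000 regions, replicate 1 had 29249 and replicate 2 had 30000. The IDR list held exactly the 704 strongest pooled regions. An IDR peak is therefore a region above a cut on pooled signal, which does not by itself show that the replicates agreed there. Ranks are by signal, with rank 1 the strongest. Signals of different lists are not on 1 known scale and are set side by side only as ranks. Whether enrichment at any of these genes is particular to ZTF-4 was not tested, since no control track was analysed here. Read depth is unknown.

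Methylation of lysines on the tail of histone H3 marks active and silent chromatin. COMPASS-type complexes add methyl groups to lysine 4 (H3K4), a mark of active promoters and enhancers, through a SET-domain enzyme together with a shared core that contains WDR5, RBBP5, ASH2 and DPY30 proteins. SET-2 is the worm SET1-type enzyme and SET-16 the MLL-type enzyme, and UTX-1, a demethylase of lysine 27, works with the MLL-type complex. MET-1 methylates lysine 36 within transcribed genes, and MET-2 and SET-25 methylate lysine 9, which anchors silent chromatin at the nuclear periphery in worm embryos.

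The 9 genes fell into 3 levels. A strong peak lay at the start of set-16, ash-2 and met-1, with pooled signals of 88.2, 62.6 and 60.9. Weaker candidate summits were found at wdr-5.1, utx-1 and set-25, whose strongest had pooled signals between 25.1 and 27.3, and at met-2 and set-2, with 15.0 and 13.1. At rbbp-5 the pooled list had no summit. Counting a summit inside a gene or within 1000 bp upstream, 3 of the 9 genes had an IDR peak, against 2.92% of all protein-coding genes. This count only restates the choice of the genes, so nothing is read from it.

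**Figure D1:**
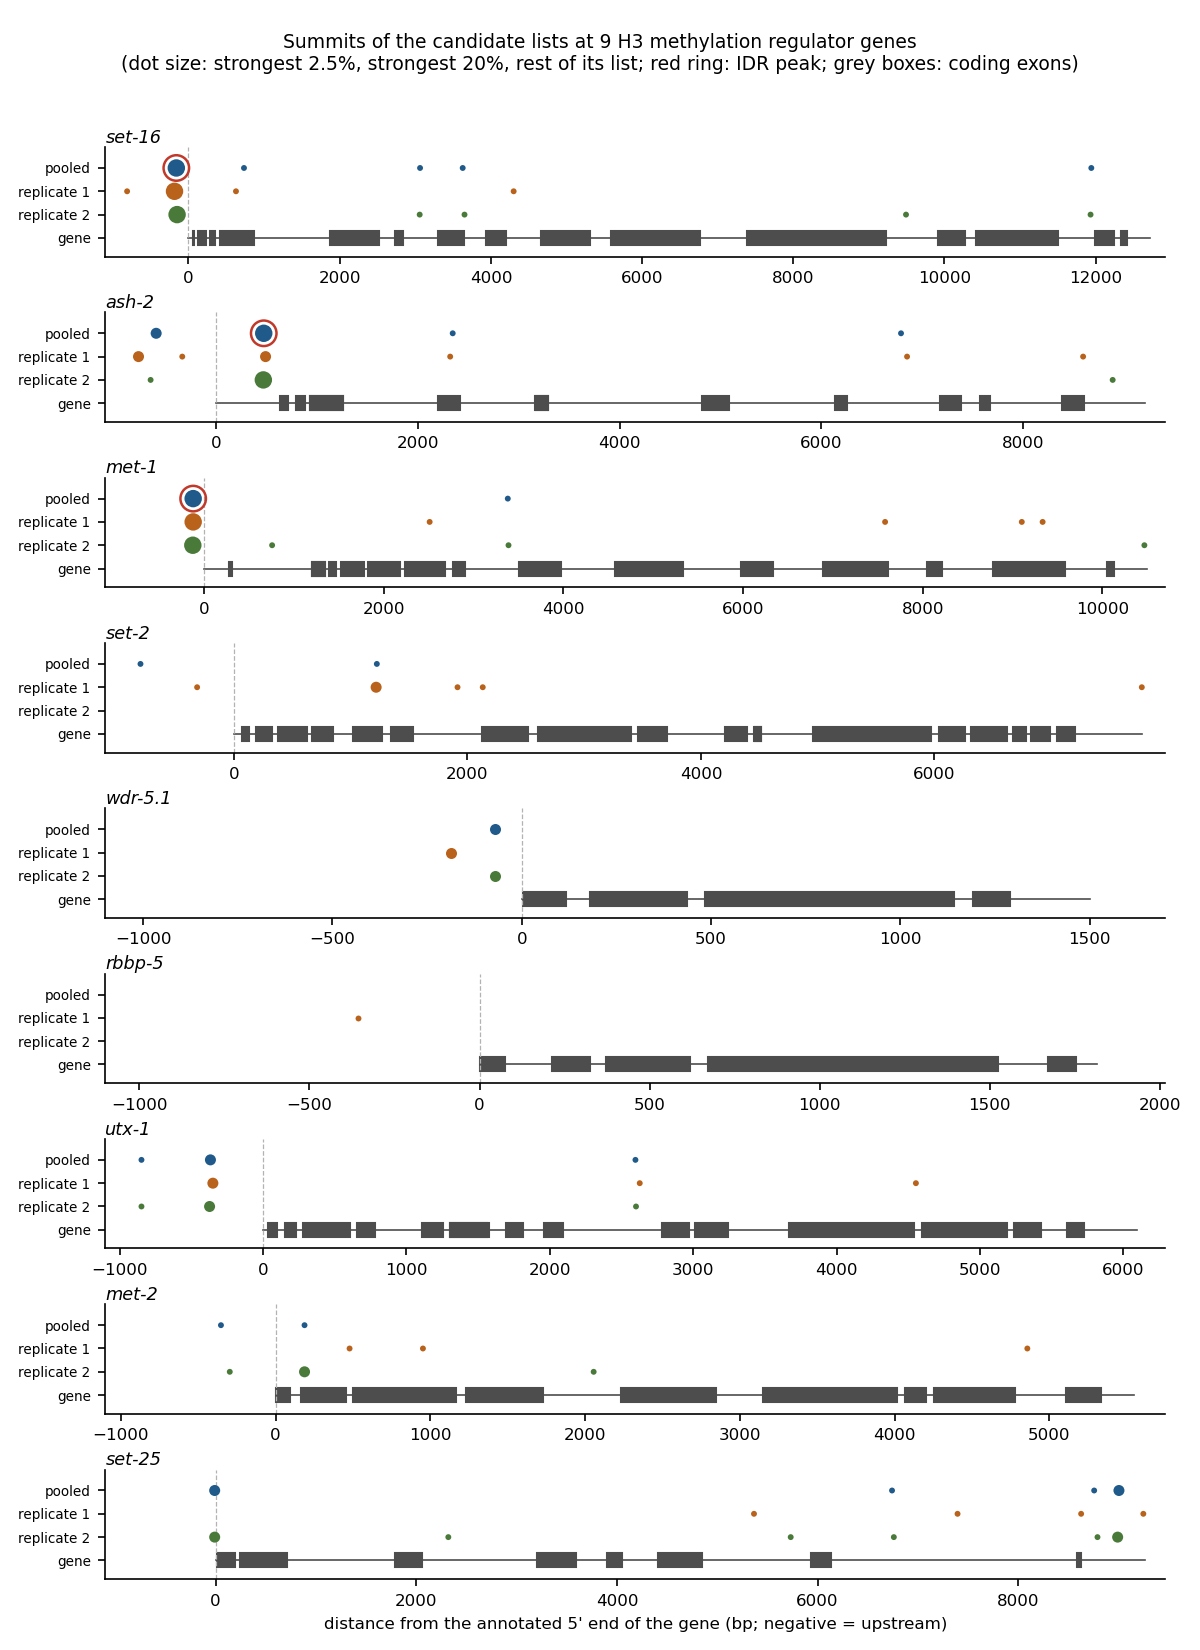
Summits at each of the 9 genes, with distance from the annotated 5' end in bp on the horizontal axis (each gene at its own scale) and 1 row of dots each for the pooled, replicate 1 and replicate 2 lists above the gene model. Large dots at set-16 and met-1 line up in the 3 lists just upstream of the 5' end, while the replicate 1 dot of ash-2 at 489 bp is smaller than that of replicate 2 at 467 bp.

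The peak of set-16, which encodes the MLL-type H3K4 methyltransferase, was the strongest of the group. Its region spanned chrIII:13643570-13643939, with the summit at 13643755 in intergenic sequence, 161 bp upstream of the single annotated 5' end of set-16 on the plus strand. The IDR list placed it 67th of 704, or 42nd among the 678 nuclear peaks. In replicate 1 the matching summit lay 24 bp away and ranked 129th (signal 25.6), and in replicate 2 it lay 10 bp away and ranked 75th (signal 61.4). Both ranks were within the top 0.441% of their lists. Of all protein-coding genes, 45 (0.225%) had a pooled summit of at least this signal in their window. The base sequence around the summit is shown because it held repeated words. Capitals mark GACGCA, the 6-base word most enriched at all IDR summits in earlier work on these data, and TGGCA followed after 3 bases by its reverse complement TGCCA, a pair noticed on reading these sequences. The stretch is chrIII:13643655-13643855 on the plus strand, with the summit at base 101.
set-16: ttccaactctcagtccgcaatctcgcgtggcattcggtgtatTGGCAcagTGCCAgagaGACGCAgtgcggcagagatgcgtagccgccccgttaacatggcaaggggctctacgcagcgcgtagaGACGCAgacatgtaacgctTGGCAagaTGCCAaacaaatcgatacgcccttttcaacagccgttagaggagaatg

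GACGCA began at bases 60 and 127 of this stretch, 41 bp before and 26 bp after the summit. These distances are to the first base of each copy. By the measure given below for set-2 and met-1, which is not to the first base, the nearer copy lay 29 bp away. The paired words were centred 52 bp upstream and 51 bp downstream of the summit, so that each GACGCA lay between a pair and the summit. GC content over the 101 bp around the summit was 60.4%, against a median of 46.5% over nuclear IDR summits and 33.7% over pooled summits outside the IDR list. The remaining 4 pooled summits of set-16 all lay inside the gene and had signals between 7.38 and 9.35, ranks from 15338 to 22149. Of these, 3 had a replicate 2 summit within 100 bp and 0 had one in replicate 1.

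The set-16 peak lies between diverging genes. The neighbour drr-2, on the minus strand at 13642420 to 13643570 of the same chromosome, had its 5' end 185 bp from the summit, about as near as that of set-16. The data do not tell which of these genes the region belongs to. In worms, drr-2 encodes an RNA-binding protein with similarity to a translation initiation factor and is known from work on diet and lifespan.

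At ash-2, the gene for the ASH2 core subunit, the peak lay within the annotated gene. The region spanned chrII:11980124-11980493, and the summit at 11980309 was 471 bp downstream of the gene's outermost 5' end. That end belongs to 1 of 5 annotated transcripts, a non-coding one whose exon holds the summit. The other 4 transcripts, which are coding, start further in, and the summit lay 117 to 156 bp upstream of their 5' ends. The pooled signal was 62.6, rank 142, and 104 protein-coding genes (0.520%) had a summit as strong or stronger. The sequence is shown for comparison with set-16: chrII:11980209-11980409, plus strand, summit at base 101, capitals as above.
ash-2: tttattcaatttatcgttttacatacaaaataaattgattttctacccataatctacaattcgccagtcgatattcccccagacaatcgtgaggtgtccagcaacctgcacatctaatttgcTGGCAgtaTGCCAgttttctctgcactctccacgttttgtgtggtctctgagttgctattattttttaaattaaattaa

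The paired words occurred once here, centred 28 bp downstream of the summit, and GACGCA did not occur within 500 bp. GC content within 50 bp of the summit was 47.5%. The replicates differed in how highly they placed this peak. Replicate 2 had it at rank 103 (signal 53.9, summit 4 bp away), in the top 0.343% of its list, and replicate 1 at rank 2042 (signal 9.35, summit 18 bp away), in the top 6.98%. Of the 3 IDR peaks at these genes, ash-2 was the only one outside the 704 strongest regions of replicate 1.

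A diverging neighbour was also present at ash-2. Y17G7B.20, on the minus strand at 11977776 to 11979844, overlapped the non-coding 5' end of ash-2, and its own 5' end was 465 bp from the summit. That is about as near as the outermost 5' end of ash-2, and further than the 5' ends of its coding transcripts. As at set-16, the data do not tell which gene the region belongs to. A second pooled summit of ash-2, 596 bp upstream of the gene (signal 15.6, rank 5527), lay in an intron of Y17G7B.20. It had a replicate 2 partner within 100 bp at rank 8705 and none in replicate 1, where the nearest summit was 175 bp away. The pooled summits further inside ash-2 were weak, with signals of 6.35 and 9.91.

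The other 2 core subunit genes had no IDR peak. At wdr-5.1, the main worm WDR5 gene, a single pooled summit lay 71 bp upstream of the 5' end, at position 3705214, in intergenic sequence. Its signal of 27.3 and rank of 1435 made it the strongest summit at these genes outside the IDR list, whose last member had a signal of 35.9. A summit at least this strong was present at 1104 protein-coding genes (5.52%). Replicate 2 had its summit at the same base (rank 953, top 3.18%). The nearest replicate 1 summit was 116 bp away, beyond the 100 bp used to pair summits (rank 4918). The stretch chrIII:3705114-3705284, plus strand, with the summit at base 101, ends at the last base before the annotated gene.
wdr-5.1: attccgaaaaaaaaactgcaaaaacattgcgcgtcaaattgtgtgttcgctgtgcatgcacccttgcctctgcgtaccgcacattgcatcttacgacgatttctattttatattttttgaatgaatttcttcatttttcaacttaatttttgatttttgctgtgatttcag

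Neither GACGCA nor the paired words occurred in this window. At rbbp-5, which encodes the RBBP5 subunit, the only summit in any of the 4 lists was in replicate 1, 357 bp upstream of the 5' end, with signal 3.62 and rank 14523. It fell in a 5' untranslated exon of the neighbouring gene tpp-2.

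At set-2, which encodes the SET1-type enzyme, the pooled list had 2 weak summits. The stronger, 799 bp upstream (signal 13.1, rank 8054), lay in a coding exon of C26E6.12 and had no partner within 100 bp in replicate 1 or in replicate 2. It held GACGCA 1 bp from the summit, in a window of 24.8% GC. The other, 1225 bp inside set-2 (signal 8.70), had a partner 6 bp away in replicate 1 at rank 3136 and none in replicate 2. Replicate 2 had 0 summits anywhere in set-2 or its upstream window, while replicate 1 had 5, with signals between 2.57 and 7.82.

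The demethylase gene utx-1 carried a candidate that both replicates shared. Its summit lay 367 bp upstream of the 5' end, at position 8556779 of the X chromosome, with a pooled signal of 25.5 and rank 1691. The replicate 1 summit was 17 bp away (rank 4399, top 15.0%) and the replicate 2 summit 6 bp away (rank 1954, top 6.51%). A weak summit 2597 bp inside the gene (signal 10.1) also had partners in replicates 1 and 2, at ranks 19102 and 28700. Another pooled summit, 848 bp upstream (signal 9.79), lay in the 3' untranslated region of dhhc-14 and had a partner in replicate 2. The stretch around the strongest summit, chrX:8556679-8556879 on the plus strand with the summit at base 101, lay outside annotated exons and was 48.3% GC.
utx-1: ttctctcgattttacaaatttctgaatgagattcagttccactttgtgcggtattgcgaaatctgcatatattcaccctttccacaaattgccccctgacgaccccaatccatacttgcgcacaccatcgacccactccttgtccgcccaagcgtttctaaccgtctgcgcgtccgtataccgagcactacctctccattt

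Neither word occurred in it.

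The third strong peak was that of met-1, the gene for the H3K36 methyltransferase, on chromosome I. Its region spanned 4253890 to 4254259, with the summit at 4254075, 122 bp upstream of the outermost of 4 annotated 5' ends. It had a pooled signal of 60.9 and rank 157, and 120 protein-coding genes had a summit as strong. The replicates placed it alike: the replicate 1 summit was at the same base with rank 177 (signal 22.9, top 0.605%), and the replicate 2 summit 4 bp away with rank 283 (signal 36.8, top 0.943%). The summit fell in an intron of C43E11.12, a gene on the same strand whose 5' end lay 833 bp upstream and whose annotated 3' end lies just before met-1. Here too, the data do not tell which gene the region belongs to. The 101 bp window was 49.5% GC. GACGCA was absent within 100 bp, with the nearest copy 117 bp away, and the paired words were also absent. The only other pooled summit of met-1, 3381 bp inside, had a signal of 5.86, near the bottom of the list at rank 29611.

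Neither gene for H3K9 methylation had a peak in the IDR list. At met-2, the SETDB1-type enzyme gene, the strongest pooled summit was in a coding exon, 187 bp inside the gene (signal 15.0, rank 6095). Replicate 2 had its summit at the same base (rank 5883), and the nearest in replicate 1 was 291 bp away. The second, 353 bp upstream (signal 9.84), lay in the 3' untranslated region of lmbr-1.

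At set-25 the strongest candidate was at the far end of the gene. Its summit lay 9004 bp from the 5' end in the 3' untranslated region (signal 25.1, rank 1774), in a window of 26.7% GC. Replicate 2 placed it 776th, in the top 2.59% of its list, and the nearest replicate 1 summit was 243 bp away. A summit 10 bp upstream of the set-25 5' end had a pooled signal of 17.9 (rank 4011) and the same base in replicate 2 (rank 4195). The nearest replicate 1 summit was 3449 bp away.

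**Figure D2:**
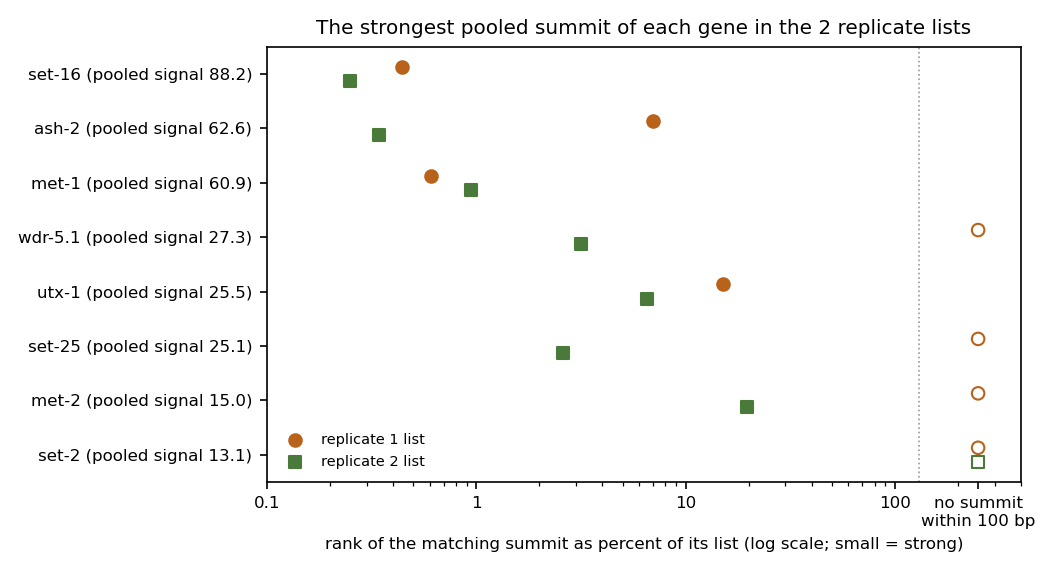
Rank of the strongest pooled summit of 8 genes (rbbp-5 has none) in the replicate 1 list (circles) and the replicate 2 list (squares), as percent of the list on a log scale, with open symbols where no summit lay within 100 bp. The symbols of set-16 and met-1 lie under 1% in both lists, that of ash-2 at 6.98% in replicate 1 and 0.343% in replicate 2, and 4 of the 8 genes have no match in replicate 1.

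The 3 IDR peaks had partners within 24 bp in replicate 1 and within 10 bp in replicate 2. Most IDR peaks have such partners: of all 704, 89.1% had one within 100 bp in replicate 1, 95.0% in replicate 2 and 84.2% in both. Of all 23 pooled summits at the 9 genes, 8 had a partner within 100 bp in replicate 1, 18 in replicate 2, 5 in both and 2 in neither. Over the whole pooled list 36.6% of summits had a partner in replicate 1, 67.6% in replicate 2 and 20.4% in both. Beyond the IDR peaks, only the 2 utx-1 summits at 367 bp upstream and 2597 bp inside had partners in both replicates. At this distance, 4 of the 9 genes therefore had a summit matched in all 3 lists. The count depends on the 100 bp used. The nearest replicate 1 summit was 116 bp from that of wdr-5.1 and 130 bp from the set-25 summit 8757 bp inside, and both had a replicate 2 partner.

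Most of these genes had listed regions, which need not be peaks. A pooled summit lay in the window of 8 of the 9 genes, against 45.6% of all protein-coding genes. For replicate 1 the count was 9 of 9 against 53%, for replicate 2 it was 7 of 9 against 47.4%, and for both replicates 7 of 9 against 37%. The windows of these genes had a median length of 8.78 kb, against 3.03 kb over all protein-coding genes, and the part of window length in these counts was not tested. Per kb, the 9 windows held 0.313 pooled summits, against 0.304 over all protein-coding windows. Replicate 1 gave 0.436 against 0.305 and replicate 2 gave 0.340 against 0.303. The densities differed little in the pooled list and most in replicate 1, and the differences were not tested. The summits counted include the peaks of set-16, ash-2 and met-1, which were known when the genes were chosen. Nothing is therefore read from these counts or densities.

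**Figure D3:**
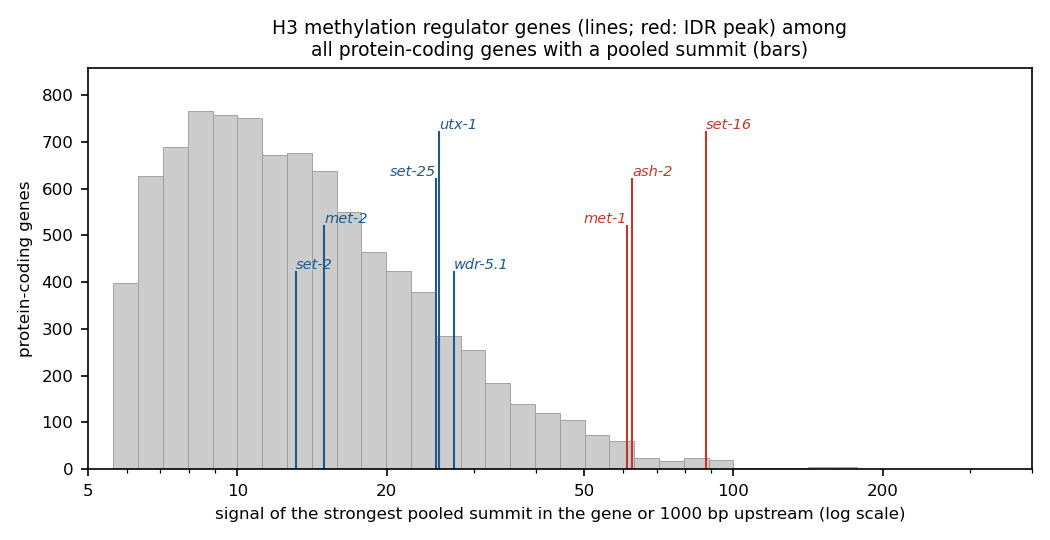
Signal of the strongest pooled summit per gene on a log scale (lines for the 8 genes of the group that have one, red with an IDR peak) above the number of protein-coding genes at each signal (bars, 9114 genes with a pooled summit). The median of the bars is 12.3, and set-16, ash-2 and met-1 stand at 88.2, 62.6 and 60.9.

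Of the 23 pooled summits, 8 were within 500 bp of the gene's outermost 5' end, and these came from 7 of the 9 genes. Over all protein-coding genes, 27.6% of the pooled summits in their windows lay this near. All 3 IDR summits were among them. For 6 of the 8 genes with a pooled summit the strongest one was within 500 bp of this end, the exceptions being set-2 at 799 bp and set-25 at 9004 bp. The same held for 3965 of 9114 protein-coding genes with a pooled summit (43.5%), and the difference was not tested. The 6 genes include set-16, ash-2 and met-1, whose peaks were known when the set was chosen. Nothing is therefore read from either comparison with all protein-coding genes. Many worm mRNAs are trans-spliced, so the annotated end need not be where transcription begins. Each of the 3 IDR peaks also lay in the window of 1 other coding gene: drr-2 for set-16, Y17G7B.20 for ash-2 and C43E11.12 for met-1. The candidates of wdr-5.1 and utx-1 near the 5' end and the 2 strongest of set-25 were shared with no other gene.

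In signal, the peaks most like that of set-16 in the IDR list were the one ranked just above, nearest to epg-9 (88.6, 992 bp from its 5' end), and the one just below, nearest to pxn-1 (88.2, 5651 bp). For ash-2 these were peaks nearest to ZK470.2 (62.8) and mrpl-23 (62.6), and for met-1 those nearest to pbrm-1 (60.9) and imb-3 (60.7). This likeness is in 1 pooled value only. The last peak inside the IDR list was nearest to K08F11.1 (signal 35.9, rank 704), and the first region outside nearest to F56C3.1 (35.9, rank 705). Between these and the 9 genes there was a wide gap on both sides, from met-1 at 60.9 down to wdr-5.1 at 27.3.

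The paired words were rare at IDR and other pooled summits, while GACGCA was rare outside the IDR list and more frequent in it. GACGCA occurred within 50 bp of 2 of the 23 pooled summits, those of set-16 and set-2. It occurred at 110 of 678 nuclear IDR summits (16.2%), at 2.91% of pooled summits outside the IDR list and at 2.57% of protein-coding 5' ends, in windows of the same 101 bp, with both strands searched. The paired words, which read the same on both strands, occurred within 100 bp of 2 of the 23 summits, those of set-16 and ash-2. They occurred at 16 of 678 nuclear IDR summits (2.36%), at 82 of 29294 other pooled summits (0.280%) and at 36 of 19973 protein-coding 5' ends (0.180%), in windows of the same 201 bp. More than 1 copy was present at 2 of the 678 IDR summits, of which set-16 was one. The pair was picked from the set-16 and ash-2 sequences themselves, so its presence there is a description and was not tested, and a match does not show that a protein binds it.

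Of 38 other worm genes that add, remove or read H3 methylation, 0 had an IDR peak in the gene or 1000 bp upstream. Over all protein-coding genes the share was 2.92%. The 38 were listed from gene function, without the 9 that were chosen with their peaks known, and need not cover all such genes. This count is partly fixed by that choice, and nothing is read from it. Pooled summits were present at 19 of the 38 (50%), near the 45.6% of all coding genes. Both replicates had a summit at 16 (42.1%), against 37% of all coding genes. The strongest pooled signal per gene had a median of 26.4 in the 8 genes of the group that had one, and of 12.6 in the 19 others, against 12.3 over all protein-coding genes with a summit. The group was chosen for its strong peaks, so this difference is not a finding.

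Among further H3K4 methylation genes, dpy-30, the DPY30 core subunit, had a pooled signal of 15.8 at 385 bp upstream. The strongest summit of cfp-1, the CXXC subunit of the SET1-type complex, had 14.1 and lay 6033 bp inside, in the 3' untranslated region. That summit also fell in the window of F52B11.2. The values of hcf-1 and wdr-5.2 were 6.89 and 6.65. No pooled summit was found at wdr-5.3, set-17, set-30 or pis-1. Of the H3K4 demethylase genes, rbr-2 reached 18.0, at 6275 bp inside in its 3' untranslated region, and spr-5 8.07, with none at lsd-1 or amx-1. The highest values in this list were at 2 demethylase genes, jmjd-1.2 (30.4, rank 1082, 479 bp upstream) and jmjd-2 (24.8, rank 1831). The first acts on H3K9 and H3K27, and the second is a KDM4-type gene that held 10 pooled summits. The jmjd-1.2 summit also lay in the windows of F29B9.11 and mrps-21, and the strongest of jmjd-2 was in an intron, 819 bp inside. The related genes jmjd-5 and jmjd-3.1 had 14.8 and 9.96, with none at jmjd-1.1, jmjd-3.2 or jmjd-3.3. The PRC2 genes mes-2, mes-3 and mes-6, which act on H3K27, had maxima between 8.65 and 12.6. For H3K36 there was no pooled summit at mes-4 or set-12. For H3K9, lin-65, a MET-2 partner, had 5.97, and set-32 and arle-14 had none. The H3K79 enzyme gene dot-1.1 had 17.6 and the other 4 dot-1 genes none. Among readers, mrg-1 had 15.1, cec-3 13.6, hpl-2 12.6 and cec-4 7.83, with none at hpl-1 or lin-61. The strongest summits of hcf-1, jmjd-5, mes-6, dot-1.1, mrg-1, cec-3 and cec-4 were also in the windows of other coding genes.

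**Figure D4:**
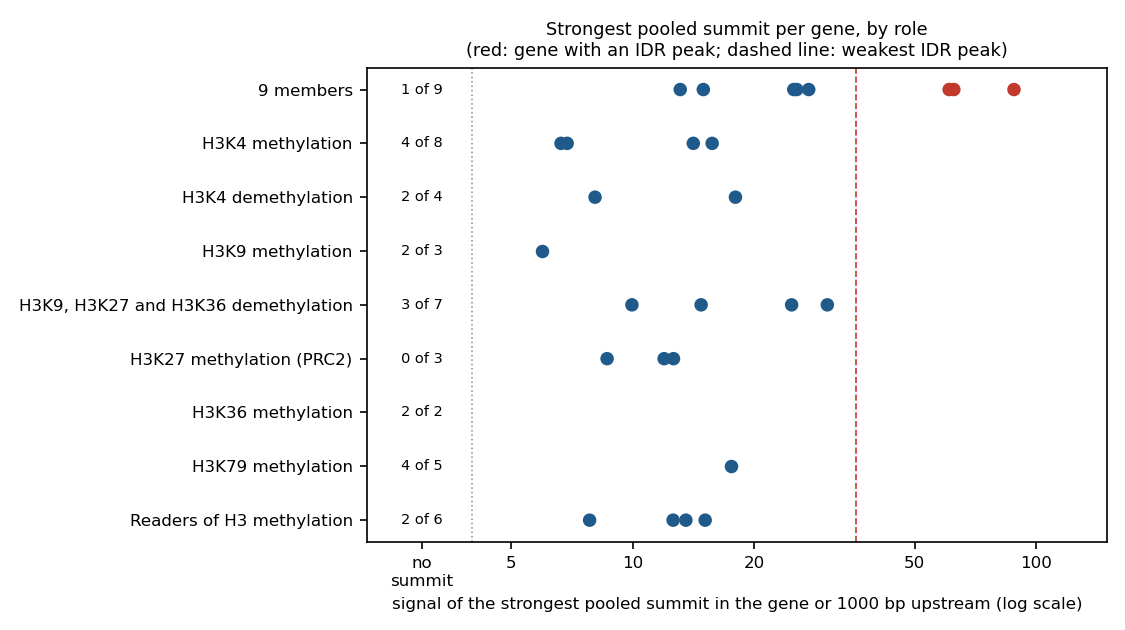
Signal of the strongest pooled summit per gene on a log scale, with the 9 genes of the group in the top row and 38 other genes by role below; numbers at left count genes with no pooled summit, and the dashed line is the weakest IDR peak at 35.9. Red points right of the line occur only in the top row, and the highest point below it is jmjd-1.2 at 30.4.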

How the data were processed

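ChIP-seq regions from L3 larvae (1 group, 2 biological replicates) were analysed from narrowPeak lists in the ce11 build. Per the file headers in the deposited inventory, regions were called for each replicate and for the replicates pooled, with control data, and the IDR list was derived from these lists. The peak caller, aligner, IDR threshold and versions are not given in the sources used here. Signal values were used as the authors deposited them, to describe and rank regions within a list. The deposited −log10 q-values shared a ceiling and were not used for ranking. The deposited region starts and summit offsets (whole bases, no score) were converted to 1-based positions. Lists in ce10 were not used here.

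Gene models were Ensembl release 115 of WBcel235, the same assembly as ce11, and sequence was NCBI RefSeq's copy, with no region or gene model past a chromosome end. Summits were assigned to a gene if inside it or within 1000 bp upstream, and paired between lists within 100 bp. The assignment was checked on planted summits. No test was run: the 9 genes, the list of 38 others and the word GACGCA were chosen with earlier results of these data known, and the paired word was added after seeing the sequences. Shares over all protein-coding genes stand beside the counts. Named were the 9 genes, the other list, genes sharing an IDR peak, the adjacent IDR peaks by signal and the list's edge. Other sharing genes were named after their values were seen. Tables were made in Python 3.11.15 with pandas 2.3.3, numpy 2.4.6 and scipy 1.17.1, and plots with matplotlib 3.10.9.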

Additional observations from a re-analysis of the deposited data

How the results depend on the processing

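Of 27 counts recomputed under alternative settings, 24 were within 1.5 times of the reported ones. The 3 genes with an IDR peak were set-16, ash-2 and met-1 also in the stronger 352 IDR peaks. Without replicate 1, using the 704 strongest regions of replicate 2, the count was 3, and without replicate 2 it was 2, with ash-2 lost. For genes with a pooled summit, leaving out a replicate meant using the list of the other one, and no new pooled list was called. The counts were therefore those already given, 7 for replicate 2 and 9 for replicate 1. Of the 7 genes with a summit in both replicates, 4 were left when the summits had to lie within 100 bp, and also within 50 bp, of each other and of a pooled summit. A wider distance was not tried for this count. With 2000 bp upstream, 1 of the 38 other genes gained an IDR peak, cec-4, 1604 bp from its 5' end (signal 39.2), against 0 in the report. Read depth was not known, so the absence of weak summits, as at rbbp-5, is not shown. No paired analysis was possible because there was 1 group.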

Other observations

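The paired words TGGCA and TGCCA, 3 bases apart, were present within 100 bp of 14 IDR summits outside the 9 genes. The strongest was nearest to trap-3 (signal 98.9, 287 bp from its 5' end), followed by tag-340 (84.7), rpl-11.2 (72.2), a ribosomal protein gene, and atp-1 (71.0), an ATP synthase subunit gene whose 5' end was 13 bp away. The next by signal were nearest to eef-1G (55.8), to wapl-1 (51.5), a cohesin release factor gene, and to hat-1 (46.8), a histone acetyltransferase gene. Of all 16 IDR windows with the pair, 4 also held GACGCA, among them that of set-16. Over all 678 nuclear IDR windows of the same 201 bp, 153 (22.6%) held GACGCA, so nothing is read from this count. The genes listed here were named after the windows were searched, and no test was run.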
